A study of Mus musculus with 2 samples.

Results

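Expression of 10 genes of bone morphogenetic protein (BMP) signalling was followed across the cell types of the mouse heart at stage E11.5: the ligands Bmp2, Bmp4, Bmp5, Bmp6, Bmp7 and Bmp10 and the receptors Bmpr1a, Bmpr2, Acvrl1 and Eng. They were taken by name, as 6 ligands and 4 receptors, whatever their values, and are 10 of the 22401 features measured. Whole hearts had been dissociated and sequenced as 10x Genomics 3′ single-cell libraries, 1 library for each of 2 genotypes. The Control library, labelled Hand2fx/+R26RmTmG/wt, had Hand2 floxed on 1 chromosome and lacked Cre. The H2CKO library, labelled Nfatc1Cre/wtHand2fx/fxR26RmTmG/wt, had Nfatc1Cre with both Hand2 alleles floxed. The R26RmTmG reporter, present once in each genotype, switches cells from Tomato to GFP when Cre acts. Nfatc1Cre acts in the endocardium and its descendants, so Hand2 was not deleted by design in other cells, and the number of embryos per library was not given in the labels. With 1 library per genotype no difference between genotypes can be tested, and every interval below is an exact 95% interval that covers counting error only.

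BMPs are secreted dimers of the TGF-β family. They bring type I receptors (BMPR1A, or ALK1 encoded by Acvrl1) together with type II receptors such as BMPR2, the receptors phosphorylate SMAD1, SMAD5 and SMAD9, and these carry the signal with SMAD4 to target genes such as the Id family. In the embryonic heart, myocardial BMP2 of the atrioventricular canal is known for inducing endocardial cells to form cushion mesenchyme, BMP4 acts in the outflow tract, BMP10 sustains growth of trabecular myocardium, and ALK1 with its co-receptor endoglin (Eng) acts in endothelium.

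Cells were grouped by clustering in which the 10 genes, Hand2 and the reporters took no part, and clusters were called by marker lists as endothelial-like, cardiomyocyte-like, mesenchymal-like, epicardial-like, white blood cell-like or erythroid-like. The libraries kept 8793 Control and 11531 H2CKO cells with median depths of 16223 and 13429 UMIs (unique molecular identifiers, counted transcripts). They shared 57 cell barcodes before filtering. Hand2 checked the labels: in endothelial-like cells it stood at 230 CPM (the gene's UMIs divided by the class total, in the usual scaling of that unit) in Control and 11.3 CPM in H2CKO, while in cardiomyocyte-like cells it stood at 80.0 and 73.1 CPM. All 12 endothelial markers were present in both libraries' endothelial-like cells, with sums of 4192 and 4172 CPM. GFP stood at 15.8 and 1187 CPM in endothelial-like cells and at 10.9 and 9.82 CPM in cardiomyocyte-like cells. Erythroid markers, summed over 10 genes, moved with the genotype inside the classes, from 15392 to 42292 CPM in endothelial-like and from 10942 to 52660 CPM in mesenchymal-like cells. Their part in the differences below was not tested. In every class the median gene was lower in H2CKO. Its log2 ratio was -0.29 in endothelial-like, -0.17 in cardiomyocyte-like, -0.24 in mesenchymal-like and -0.21 in epicardial-like cells. Differences below are not corrected for that shift unless so stated.

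Erythroid-like cells gave the background for all 10 genes: none passed 2.24 CPM there in either library. Below, fewer positive cells and less RNA per cell are not separated unless a share of cells is given. A gene was compared between genotypes where the library with the higher level reached 20 CPM from 20 UMIs or more. A log2 ratio here is that of H2CKO over Control after 5 CPM was added to each.

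Bmp2 marked the myocardium of the atrioventricular canal. In the atrioventricular-canal-like cluster (94 Control and 186 H2CKO cells) it stood at 490 CPM in Control (459 to 522) and at 304 CPM in H2CKO (284 to 324). Among clusters of 50 cells or more in both libraries, the next levels were those of the mesenchymal-like cluster rich in Meox1, Tgfbi and Inhba, at 104 and 63.7 CPM, and of the mesenchymal-like cluster rich in Col9a3, Hapln1 and Sox9, at 62.1 and 42.1 CPM. Outflow-tract-like cardiomyocytes held 30.2 and 17.1 CPM. The order of the first 3 clusters was the same in both libraries, with intervals apart. Over all cardiomyocyte-like cells the log2 ratio of Bmp2 was -0.59, and it was 0.07 under a stricter cell filter (1500 genes or more, 5% mitochondrial UMIs or less). It was low in ventricular-like (4.49 and 3.41 CPM) and trabecular-like cells (2.43 and 0.70 CPM). In the shallow cardiomyocyte-like cluster it stood at 21.5 and 9.56 CPM from 68 and 16 UMIs, a ratio of 0.446 (0.241 to 0.777).

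In the atrioventricular-canal-like, outflow-tract-like and both mesenchymal-like clusters Bmp2 was lower in H2CKO: by a ratio of 0.62 (0.565 to 0.680) in the atrioventricular-canal-like, 0.614 (0.539 to 0.697) in the Meox1-rich, 0.678 (0.588 to 0.779) in the Col9a3-rich and 0.565 (0.459 to 0.693) in the outflow-tract-like cluster. None of these passed 2-fold. The median gene of the atrioventricular-canal-like cluster had a log2 ratio of -0.14, and Bmp2, at -0.68, lay above 9.31% of the genes compared there. In the atrioventricular-canal-like cluster the share of cells with a Bmp2 UMI was 88.3% in Control and 64.5% in H2CKO, at median depths of 16911 and 12624 UMIs per cell. In epicardial-like cells Bmp2 stood at 20.5 and 23.4 CPM, a ratio of 1.14 (0.848 to 1.52) whose interval includes no difference.

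Endothelial-like cells held little Bmp2, 7.34 CPM in Control and 13.8 CPM in H2CKO, below the minimum for comparison. The difference lay in the endothelial-like cluster rich in Emcn and Plvap, where 5 UMIs in 117 Control cells gave 2.59 CPM and 100 UMIs in 485 H2CKO cells gave 15.9 CPM, a ratio of 6.15 (2.55 to 19.3). In the other endothelial-like cluster, rich in Klf2 and Wnt4, the levels were 9.53 and 9.73 CPM. The H2CKO level of the Emcn-rich cluster stood above the erythroid-like background of 1.198 and 0.53 CPM.

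Bmp4 had several sources. The highest level was in a small unnamed cluster rich in Iigp1, Rgs5 and Eln, with 533 CPM in 40 Control cells (452 to 623) and 758 CPM in 74 H2CKO cells (681 to 842). Outflow-tract-like cardiomyocytes followed at 232 and 246 CPM. Epicardial-like cells held 102 and 117 CPM, the Meox1-rich mesenchymal-like cluster 89.9 and 132 CPM, and the Col9a3-rich one 45.0 and 65.9 CPM. The order of the epicardial-like cells and the Meox1-rich cluster differed between the libraries. In the Klf2-rich endothelial-like cluster Bmp4 stood at 31.2 and 37.7 CPM on 131 and 120 UMIs, a ratio of 1.21 (0.934 to 1.56) whose interval includes no difference. In the Emcn-rich one it stood at 1.55 and 5.25 CPM, where the Control level rested on 3 UMIs and lay near the erythroid-like 1.32 CPM. Over all endothelial-like cells it stood at 21.9 and 16.2 CPM. The Emcn-rich cluster held 31.5% of the class's UMIs in Control and 66.3% in H2CKO. With the H2CKO clusters weighted by their shares in Control, a calculation added after seeing the data, the H2CKO level was 27.5 CPM and the log2 ratio 0.27, against -0.34 unweighted.

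In mesenchymal-like cells Bmp4 was higher in H2CKO. Its ratio there was 1.45 (1.34 to 1.57), with a log2 ratio of 0.50 that lay above 97.5% of the genes compared, and it was nearly equal in the Meox1-rich (1.47, 1.32 to 1.62) and the Col9a3-rich cluster (1.46, 1.29 to 1.66). In outflow-tract-like cardiomyocytes Bmp4 differed by less than counting error, with a ratio of 1.06 (0.997 to 1.13). In the shallow cardiomyocyte-like cluster it stood at 16.7 and 32.9 CPM on 53 and 55 UMIs. Over all cardiomyocyte-like cells it was lower in H2CKO, at 49.1 and 34.8 CPM. Outflow-tract-like cells held 18.1% of the UMIs of these cells in Control and 11.6% in H2CKO, and with the H2CKO clusters weighted by their shares in Control the H2CKO level was 51.3 CPM, a log2 ratio of 0.06 against -0.44 unweighted. Under the stricter cell filter the log2 ratio was 0.90.

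Bmp5 and Bmp7 were myocardial. Bmp7 was at nearly the same level in the deeper myocardial clusters, between 73.2 and 81.2 CPM in the ventricular-like, trabecular-like, outflow-tract-like, atrioventricular-canal-like and atrial-like clusters in Control, with neighbouring intervals overlapping. In H2CKO the same clusters, atrial-like cells aside, ran from 80.2 to 92.3 CPM. In the shallow cardiomyocyte-like cluster Bmp7 stood at 49.5 and 47.8 CPM from 157 and 80 UMIs. Over all cardiomyocyte-like cells Bmp7 stood at 76.7 and 87.6 CPM, a ratio of 1.14 (1.10 to 1.19), and 81.4% and 85.3% of its UMIs were in these cells. Under the stricter cell filter above its log2 ratio turned from 0.18 to -0.18. Epicardial-like cells held 4.25 and 12.8 CPM of Bmp7 from 48 and 34 UMIs, below the minimum.

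Bmp5, a close relative of Bmp7, was less even across the myocardium. It peaked in the atrioventricular-canal-like cluster at 52.1 CPM in Control (42.4 to 63.3) and 29.3 CPM in H2CKO (23.5 to 36.1), a ratio of 0.562 (0.417 to 0.756), and stood at 24.4 and 19.2 CPM in ventricular-like cells. Its log2 ratio in the atrioventricular-canal-like cluster, -0.74, lay above 7.33% of the genes compared there. Over all cardiomyocyte-like cells it was at 21.8 and 17.6 CPM. Endothelial-like and mesenchymal-like cells stayed at or under 1.02 CPM.

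Bmp10, the trabecular growth factor, was a low-level gene found mostly in cardiomyocyte-like cells. These held 83.3% of its UMIs in Control and 93.8% in H2CKO. In trabecular-like cells (456 Control and 1011 H2CKO cells) it stood at 12.9 CPM (10.9 to 15.2) and 24.0 CPM (21.8 to 26.3), a ratio of 1.86 (1.54 to 2.26) with a log2 ratio above 98.9% of the genes compared in that cluster. Ventricular-like cells showed the same direction, with 7.96 and 12.7 CPM and a ratio of 1.59 (1.35 to 1.89). The shallow cardiomyocyte-like cluster held 4.10 and 2.39 CPM on 13 and 4 UMIs, a ratio of 0.583 (0.138 to 1.89) whose interval includes no difference. The share of trabecular-like cells with a Bmp10 UMI was 21.3% in both libraries, at median depths of 22361 and 15866 UMIs. Over all cardiomyocyte-like cells Bmp10 stood at 7.46 and 13.5 CPM, a ratio of 1.81 (1.61 to 2.04), below the minimum for comparison. Boundaries among the cardiomyocyte clusters depended on numerical rounding in the clustering, and the effect of this on the Bmp10 values by cluster was not tested. Control atrial-like cells held 12.2 CPM (107 cells), and H2CKO had 5 such cells, too few for a value.

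Among clusters of 50 cells or more in both libraries, Bmp6 was highest in the Col9a3-rich mesenchymal-like cluster, at 15.7 and 18.9 CPM, and at most 3.79 CPM in the named myocardial clusters with 50 cells or more in both libraries. Endothelial-like cells held 6.53 CPM in Control on 40 UMIs, and the H2CKO level, on 142 UMIs, was 2.30 times as high (1.61 to 3.35). Both libraries lay under the 20 CPM minimum, so this is a value and not a call. In the Emcn-rich cluster the levels were 4.15 and 16.4 CPM, in the Klf2-rich one 7.62 and 12.2 CPM.

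**Figure D1:**
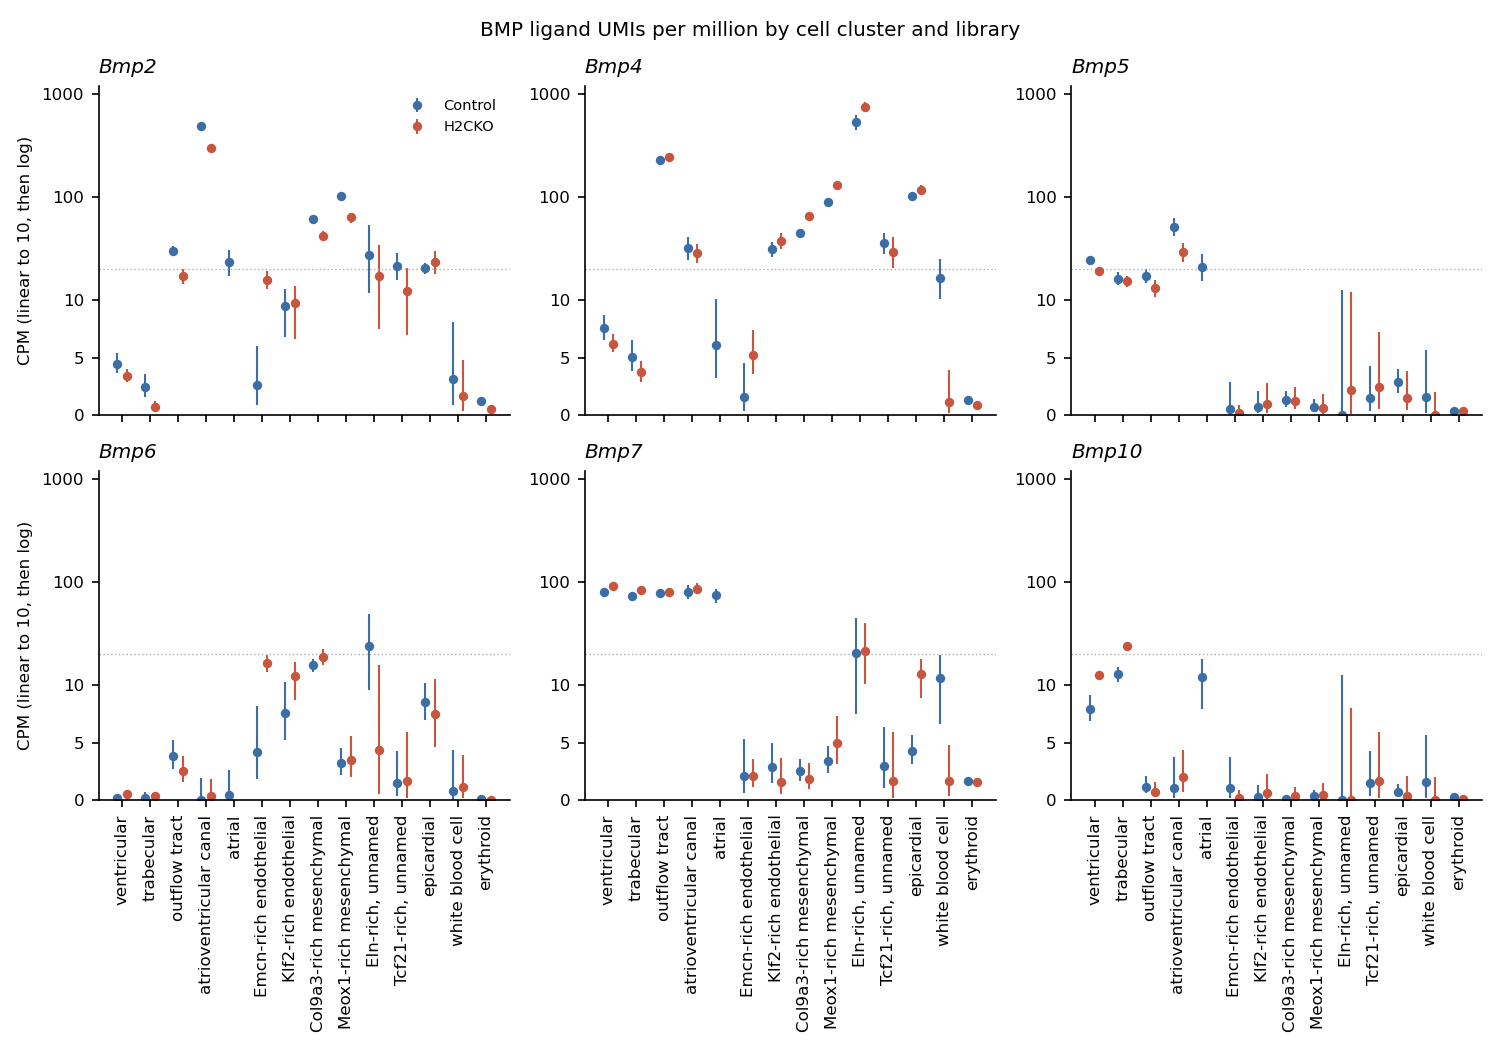
Levels of the 6 ligands as CPM (linear up to 10 and logarithmic above) in each cell cluster of Control (blue) and H2CKO (red); the names are the marker-based ones, bars are 95% counting intervals, the dotted line is the 20 CPM minimum, and clusters under 30 cells in a library have no point. Both shallow clusters and 1 unnamed cluster are left out. Bmp2 peaks in the atrioventricular-canal-like cluster at 490 and 304 CPM, Bmp7 is level across the named myocardial clusters shown with both libraries, and trabecular-like Bmp10 stands at 12.9 and 24.0 CPM.

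Bmpr1a, the type I receptor for BMP2 and BMP4, was present in all non-erythroid classes. In Control its levels in the myocardial, endothelial-like, mesenchymal-like and epicardial-like clusters ran from 33.8 CPM in shallow cardiomyocytes to 98.9 CPM in the atrioventricular-canal-like cluster. Bmpr1a was at 84.2 CPM in Control endothelial-like cells (77.1 to 91.8) and at 29.0 CPM in H2CKO (25.7 to 32.7). It was thus 2.90-fold lower (2.50 to 3.37), and its log2 ratio was -1.39. It was 1.31-fold lower in cardiomyocyte-like cells (64.2 and 49.2 CPM), 1.83-fold in mesenchymal-like cells (78.0 and 42.7 CPM) and 1.40-fold in epicardial-like cells (81.6 and 58.4 CPM).

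Control and H2CKO drew their endothelial-like cells from different clusters: 254 of 371 Control cells were in the Klf2-rich cluster and 485 of 751 H2CKO cells in the Emcn-rich one. Bmpr1a was lower within each. In the Emcn-rich cluster it stood at 81.9 CPM (69.6 to 95.7) and 18.5 CPM (15.3 to 22.2), 4.43-fold lower (3.47 to 5.68). In the Klf2-rich cluster it stood at 85.3 and 49.9 CPM, 1.71-fold lower (1.41 to 2.07), less than 2-fold. With the H2CKO clusters weighted by their shares in Control the log2 ratio over all endothelial-like cells was -0.99, just short of 2-fold. The Control levels of the 2 clusters had overlapping intervals, and the H2CKO levels did not. The clusters also differed between libraries in other genes: Npr3, an endocardial marker, stood at 484 and 80.4 CPM in the Emcn-rich cluster, and the 9 mesenchymal markers summed to 1036 and 282 CPM over all endothelial-like cells. The part of these in the Bmpr1a difference was not tested.

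Bmpr2, the type II receptor, was lower in H2CKO in every class. In endothelial-like cells it stood at 149 CPM (139 to 159) and 63.2 CPM (58.2 to 68.4), and its log2 ratio was -1.17. In mesenchymal-like cells it stood at 97.3 CPM (93.3 to 101) and 36.7 CPM (33.2 to 40.4). The log2 ratio there, -1.30, lay above only 0.49% of the genes compared there. Both passed 2-fold. The endothelial-like call was lost with ratios centred on the median gene (-0.89), with the gene-span trend removed (-0.89) and with the H2CKO clusters weighted by their shares in Control (-0.97). In cardiomyocyte-like cells the levels were 54.6 and 29.3 CPM (1.86-fold lower, 1.76 to 1.97) and in epicardial-like cells 71.3 and 42.6 CPM (1.67-fold lower, 1.37 to 2.06).

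The Bmpr2 difference was nearly the same in the 2 mesenchymal-like clusters, which differed in GFP. The Col9a3-rich mesenchymal-like cluster carried 1340 CPM of GFP in H2CKO and the Meox1-rich one 65.5 CPM, and Hand2 stood at 15.4 CPM in the former and 89.8 CPM in the latter, against 177 and 185 CPM in Control. Bmpr2 was 2.68-fold lower in the Col9a3-rich cluster (101 and 37.7 CPM) and 2.63-fold lower in the Meox1-rich one (92.9 and 35.3 CPM). Among endothelial-like cells it was 2.701-fold lower in the Emcn-rich (144 and 53.3 CPM) and 1.83-fold lower in the Klf2-rich cluster (151 and 82.5 CPM), whose GFP stood at 965 and 1626 CPM in H2CKO. In an unnamed cluster rich in Tcf21 (137 Control and 104 H2CKO cells) Bmpr2 stood at 91.6 and 27.3 CPM, 3.36-fold lower (2.31 to 5.02), where 7.16% of all genes compared were past 2-fold lower. Ventricular-like cells, with 10.6 and 9.55 CPM of GFP, held 53.6 and 27.6 CPM of Bmpr2, a ratio of 0.514 (0.474 to 0.557).

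Shares of cells moved the same way at equal depth. With every cell thinned to 5000 UMIs, which left out 21 Control and 58 H2CKO cells below that depth, a Bmpr1a UMI was seen in 32.3% of Control endothelial-like cells (27.4% to 37.5%) and 12.1% of H2CKO cells (9.78% to 14.8%), and a Bmpr2 UMI in 49.4% (44.1% to 54.8%) and 26.0% (22.7% to 29.4%). Without thinning these shares were 58.8% and 26.2% for Bmpr1a and 82.2% and 46.3% for Bmpr2, at median depths of 12772 and 10253 UMIs. In thinned erythroid-like cells Bmpr1a was seen in 1.10% and 0.773% and Bmpr2 in 0.914% and 0.481% of cells.

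Eng, the endoglin co-receptor, was not limited to endothelial-like and mesenchymal-like cells, where its class levels were similar in both libraries. It stood at 299.8 CPM in Control endothelial-like cells (286 to 314) and 273 CPM in H2CKO (263 to 284), a log2 ratio of -0.13. In mesenchymal-like cells it stood at 50.7 and 47.6 CPM, a ratio of 0.939 (0.846 to 1.04). The Col9a3-rich cluster held 72.2 and 66.4 CPM and the Meox1-rich one 24.0 and 22.4 CPM. The unnamed Tcf21-rich cluster held 48.0 and 47.1 CPM of Eng, and white blood cell-like cells 23.6 and 16.4 CPM. At 5000 UMIs per cell an Eng UMI was seen in 69.7% of endothelial-like cells of Control and 69.6% of those of H2CKO. The sign of its log2 ratio depended on the scaling: centred on the median gene it was 0.15 in endothelial-like and 0.16 in mesenchymal-like cells, and it was 0.10 in endothelial-like cells with the H2CKO clusters weighted by their shares in Control. The 2 endothelial-like clusters differed in direction: 305 and 227 CPM in the Emcn-rich cluster, a ratio of 0.745 (0.676 to 0.822), and 298 and 364 CPM in the Klf2-rich cluster, a ratio of 1.22 (1.13 to 1.33). Whether the clusters differ was not tested. Epicardial-like cells held 3.72 and 9.04 CPM, under the minimum.

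Acvrl1, which encodes the ALK1 receptor partner of endoglin, was scarcely detected, with 17 UMIs in Control and 65 in H2CKO over all endothelial-like cells (2.77 and 6.87 CPM). The Emcn-rich cluster held most of them, 10 UMIs in Control (5.18 CPM, 2.48 to 9.53) and 59 in H2CKO (9.39 CPM, 7.15 to 12.1), a ratio of 1.81 (0.920 to 3.98). The Klf2-rich cluster had 1.67 and 1.88 CPM. It was not limited to these cells: white blood cell-like cells held 8 and 3 UMIs (6.30 and 1.64 CPM), and the unnamed cluster rich in Tcf21 10 and 7 UMIs (4.90 and 5.79 CPM). In cardiomyocyte-like and mesenchymal-like cells it was at or under 0.18 CPM. Acvrl1 was under the 20 CPM minimum in all of these groups, so its ratio is a value and not a call.

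**Figure D2:**
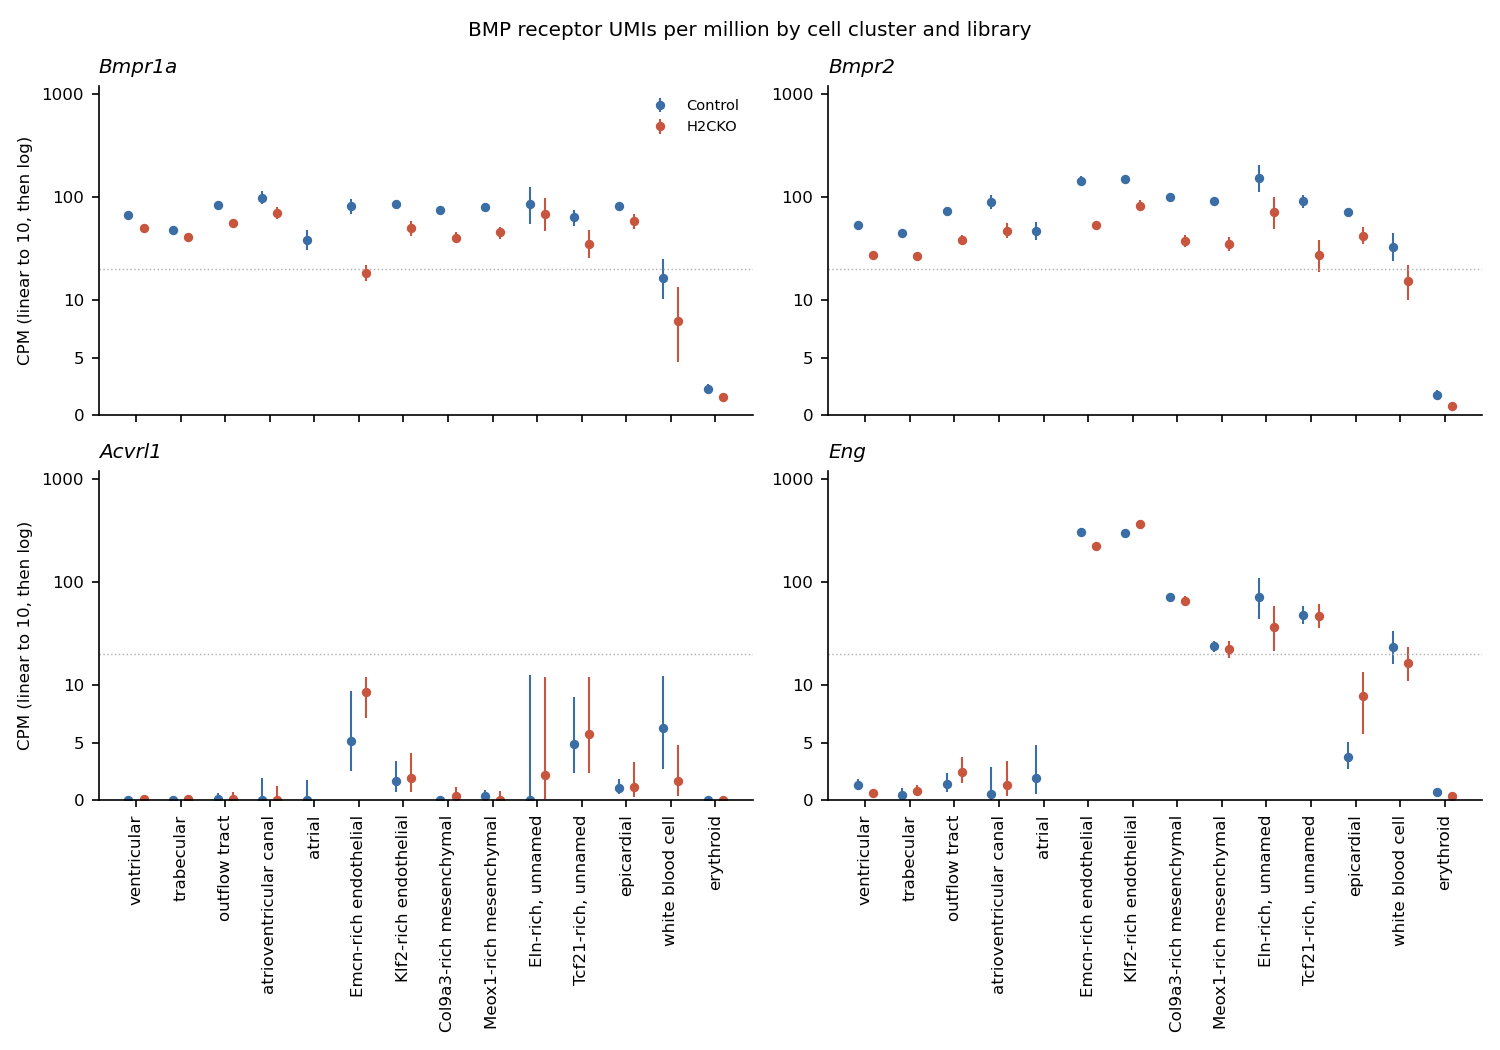
Levels of the 4 receptors as CPM (linear up to 10 and logarithmic above) in each cell cluster of Control (blue) and H2CKO (red), with 95% counting intervals and the 20 CPM minimum as a dotted line. Bmpr2 is lower in H2CKO in every myocardial, endothelial-like, mesenchymal-like and epicardial-like cluster shown with both libraries, and Bmpr1a of the Emcn-rich endothelial-like cluster stands at 81.9 and 18.5 CPM.

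Promoter letters were read for the 7 of 10 genes matched in the promoter table used here (RefSeq, build GRCm38.p6). HAND2 is a basic helix-loop-helix factor of the kind that binds E-boxes, so the 250 bases before each start were searched on both strands for the E-box CANNTG and its form CAGATG (a match to the second is also one to the first), and further for AGATAA, then for AGGTGT, then for GGCGCC. The sequences below are those of a ligand higher in H2CKO mesenchyme (Bmp4), a ligand higher in H2CKO trabecular-like cells (Bmp10) and the endothelial co-receptor (Eng), with each CANNTG in capitals, 5′ to 3′ on the gene's strand. They lie just upstream of the transcription start at chr14:46390670-46390919 on the minus strand, chr6:87428744-87428993 on the plus strand and chr2:32646345-32646594 on the plus strand.
Bmp4: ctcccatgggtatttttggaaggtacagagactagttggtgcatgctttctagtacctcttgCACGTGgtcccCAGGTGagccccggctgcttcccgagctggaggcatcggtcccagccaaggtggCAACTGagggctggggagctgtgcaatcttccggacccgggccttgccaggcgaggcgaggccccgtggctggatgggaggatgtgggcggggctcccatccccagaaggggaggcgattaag
Bmp10: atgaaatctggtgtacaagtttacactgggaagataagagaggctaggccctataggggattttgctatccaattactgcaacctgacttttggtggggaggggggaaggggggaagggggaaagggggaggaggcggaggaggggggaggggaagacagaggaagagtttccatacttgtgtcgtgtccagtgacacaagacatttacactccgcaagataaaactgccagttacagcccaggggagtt
Eng: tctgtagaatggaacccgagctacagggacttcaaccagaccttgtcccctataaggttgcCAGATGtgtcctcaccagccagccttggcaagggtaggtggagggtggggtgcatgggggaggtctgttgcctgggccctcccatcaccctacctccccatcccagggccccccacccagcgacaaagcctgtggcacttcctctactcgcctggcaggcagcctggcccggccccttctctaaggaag
Bmp4 held 3 E-boxes and Eng 1, of the CAGATG form, and Bmp10 held none but 2 AGATAA. The Bmpr1a and Bmpr2 windows held none of CANNTG but 1 GGCGCC each, and 36 and 22 CpG, against a median of 6 over 32851 promoters. The Bmp6 window held 2 CANNTG and 1 AGGTGT, and the Bmp5 window had no match to these motifs. The windows of Bmpr1a, Bmpr2 and Bmp6 overlap annotated exons and are not printed. Of all promoters 66.2% held CANNTG, 14.4% CAGATG, 9.99% AGATAA, 11.8% AGGTGT and 9.59% GGCGCC, so these matches describe the letters only.

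Counted over the list, few of the 10 genes passed 2-fold between libraries. In endothelial-like cells 4 were high enough to compare (Bmp4, Bmpr1a, Bmpr2 and Eng), and 2 of them, Bmpr1a and Bmpr2, were past 2-fold lower in H2CKO, where 7.79% of the 6550 genes compared were past 2-fold lower and 0.87% higher. Centred on the median gene, 2.47% were past 2-fold lower and 1.95% higher, and 1 of the 4 (Bmpr1a) was. With the H2CKO clusters weighted by their shares in Control, none of the 4 was. The share of all genes past 2-fold under that weighting is not given here. The median log2 ratio of the 4 was -0.76 against -0.29 over all genes. In mesenchymal-like cells 1 of 5 (Bmpr2) was past 2-fold lower, beside 3.53% lower and 0.475% higher of 6524 genes, with medians of -0.61 and -0.24. In cardiomyocyte-like cells none of 6 was past 2-fold, beside 0.61% lower and 0.179% higher of 5576 genes, and in epicardial-like cells none of 4, beside 4.68% lower and 1.36% higher of 6324 genes. Centred, these background shares were 0.766% lower and 0.904% higher in mesenchymal-like, 0.305% and 0.341% in cardiomyocyte-like and 1.30% and 1.88% in epicardial-like cells. Of the endothelial-like and mesenchymal-like clusters, Bmpr2 alone of 5 was past 2-fold lower in the Col9a3-rich mesenchymal-like cluster (5.53% of all genes compared) and in the Meox1-rich one (3.08%), Bmpr1a and Bmpr2 of 3 in the Emcn-rich endothelial-like cluster (8.64%) and none of 4 in the Klf2-rich one (3.42%).

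**Figure D3:**
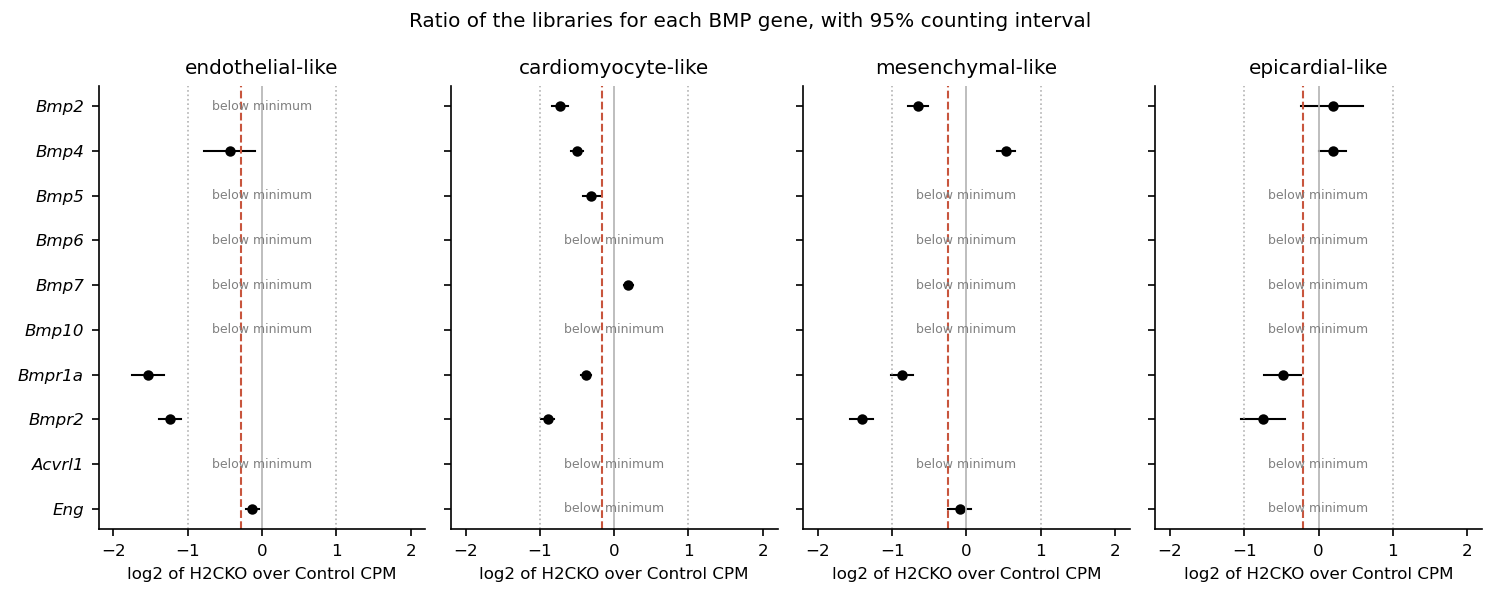
Log2 ratio of H2CKO over Control CPM without a pseudocount for each of the 10 genes in 4 classes, with 95% counting intervals; the dashed red line is the median log2 ratio of all genes compared, computed after 5 CPM was added, the dotted lines mark 2-fold, and genes under the minimum have no point. Bmpr1a and Bmpr2 in endothelial-like cells and Bmpr2 in mesenchymal-like cells lie beyond the 2-fold line on the lower side.

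Long genes were lower in H2CKO in general. The rank correlation of the log2 ratio with gene span, the length from start to end of the annotated gene, was -0.49 over 6546 genes in endothelial-like, -0.49 over 5575 in cardiomyocyte-like, -0.55 over 6520 in mesenchymal-like and -0.54 over 6320 in epicardial-like cells (description across genes that share 2 libraries and are not independent). Bmpr1a spans 92.6 kb and Bmpr2 116 kb, longer than 87.9% and 90.9% of annotated genes. Bmp6 spans 155.2 kb, Bmp5 124.9 kb and Bmp7 72.3 kb, longer than 93.7%, 91.7% and 84.4%. Bmp4 spans 7.15 kb, Bmp10 8.68 kb, Bmp2 10.7 kb, Acvrl1 16.8 kb and Eng 36.1 kb. Not every long gene of the list was lower in H2CKO. In cardiomyocyte-like cells the log2 ratio was 0.18 for Bmp7 (-0.18 under the stricter cell filter) and -0.24 for Bmp5. In endothelial-like cells Bmp6 was higher in H2CKO, under the 20 CPM minimum. With the trend on span taken out, the endothelial-like log2 ratio was -1.15 for Bmpr1a and -0.89 for Bmpr2, and the mesenchymal-like one was -1.02 for Bmpr2, 0.29 for Bmp4 and -0.56 for Bmpr1a. With ratios centred on the median gene instead, they were -1.10 and -0.89 in endothelial-like cells, and -1.05 for Bmpr2 in mesenchymal-like cells. Bmpr1a in endothelial-like and Bmpr2 in mesenchymal-like cells so stayed past 2-fold under both, and Bmpr2 in endothelial-like cells did not.

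**Figure D4:**
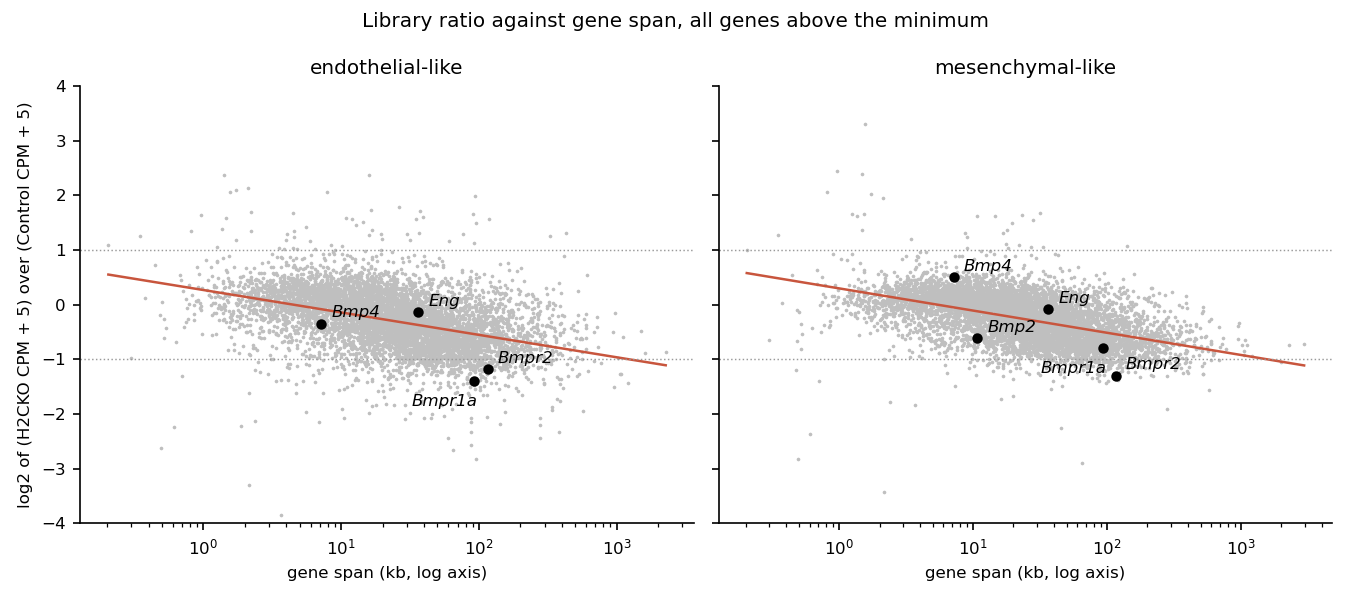
Log2 ratio of H2CKO over Control (after adding 5 CPM) against gene span in kb on a logarithmic axis, for all genes compared in endothelial-like (left) and mesenchymal-like cells (right); the red line is the fitted trend, the dotted lines mark 2-fold and those of the 10 genes that were compared are named. Bmpr1a and Bmpr2 lie below the trend in both panels, Bmp2 lies below and Bmp4 above it in mesenchymal-like cells.

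The rest of the pathway was read from 7 lists. In endothelial-like cells none of the 13 other BMP-type ligands was high enough to compare (Gdf11, the most abundant, stood at 11.4 and 3.80 CPM, and Gdf6 stood at 27.6 and 17.3 CPM in epicardial-like cells and at 21.6 and 8.27 CPM in the unnamed Tcf21-rich cluster). Of 6 other receptors and co-receptors compared, 1 was past 2-fold lower, Neo1, a co-receptor partner of the repulsive guidance molecules (38.4 and 12.4 CPM), beside 7.79% of all genes compared, and all 6 were below a log2 ratio of 0, as were 70.1% of all genes. Bambi, a pseudoreceptor that dampens BMP signalling, stood at 82.9 and 51.1 CPM. Of 6 SMADs none passed 2-fold and all 6 were below 0, with a median of -0.73: the shared mediator Smad4 stood at 109.5 and 62.6 CPM and the inhibitor Smad7 at 229.6 and 114 CPM, a log2 ratio of -0.98. With ratios centred on the median gene Neo1 stayed past 2-fold lower.

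Outside the cell, 2 of 6 antagonists and modulators were past 2-fold lower in endothelial-like cells (7.79% of all genes compared), Fstl1 (845 and 301 CPM), a secreted glycoprotein that binds BMPs, and Bmper (26.4 and 10.7 CPM), which binds BMPs and lies just past the 2-fold line. Twsg1, a BMP-binding modulator, stood at 38.5 and 18.3 CPM. Sost, an antagonist, named after its values were seen, was the 1 gene of the 6 that was higher, at 17.95 and 33.1 CPM. Over the other endothelial-like cells Sost was among the 10 leading genes of the Emcn-rich cluster. That cluster held 31.5% of the class's UMIs in Control and 66.3% in H2CKO. The part of this in the Sost difference was not tested. Of the 3 proteases compared, 2 were past 2-fold lower (7.79% of all genes): Furin (58.3 and 19.6 CPM), a convertase that cleaves BMP precursors, and Pcsk5 (71.7 and 21.5 CPM), a related convertase. In mesenchymal-like cells Furin was also past 2-fold lower (84.7 and 35.2 CPM), as were 3.53% of all genes compared, and in epicardial-like cells Pcsk5 was (286 and 108 CPM), as were 4.68%. Centred on the median gene, Fstl1, Furin and Pcsk5 stayed past 2-fold lower in endothelial-like cells and Pcsk5 in epicardial-like cells, Bmper in endothelial-like and Furin in mesenchymal-like cells did not, and Sost was past 2-fold higher.

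Target genes did not move together, and the lists do not give the direction in which each target is regulated. Of 11 BMP-SMAD target genes compared in endothelial-like cells 4 were past 2-fold lower, beside 7.79% of all genes compared: Has2 (121 and 24.7 CPM), the hyaluronan synthase of the cushions, and the transcription factors Tbx20 (278 and 64.2 CPM), Twist1 (125 and 37.6 CPM) and Gata4 (185 and 80.6 CPM). None was past 2-fold higher, beside 0.87% of all genes. The Id genes, direct SMAD targets, split: Id1 stood at 447 and 301 CPM, Id2 at 261 and 284 CPM and Id3 at 853 and 998 CPM. Of 10 genes listed as ALK1-endoglin targets, 2 were past 2-fold lower (7.79% of all genes), the chemokine receptor Cxcr4 (29.4 and 11.3 CPM) and the Notch effector Hey2 (101 and 31.2 CPM). After centring on the median gene 3 of the 11 remained, without Gata4, and 1 of the 10, without Cxcr4. Values of list genes over all endothelial-like cells, here and above, are class sums not weighted by cluster shares. The part of the cluster mix in them was not tested. Twist1 is also among the mesenchymal markers used to call clusters.

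Within the clusters the same genes differed in size. Id3 stood at 659 and 971 CPM in the Emcn-rich and 943 and 1051 CPM in the Klf2-rich cluster, Id1 at 312 and 244 CPM and at 508 and 413 CPM. Has2 stood at 15.5 and 1.27 CPM in the Emcn-rich cluster, below the minimum, and at 170.1 and 70.9 CPM in the Klf2-rich cluster. In mesenchymal-like cells 2 of 14 BMP-SMAD target genes were past 2-fold lower (3.53% of all genes compared), Tbx2 (26.3 and 10.0 CPM) and Tbx20 (527 and 248 CPM), while Id1 stood at 659.6 and 655.8 CPM and Id3 at 1373 and 1651 CPM. Centred on the median gene, neither Tbx2 (-0.82) nor Tbx20 (-0.83) was past 2-fold, and the count was 0 of 14. In cardiomyocyte-like cells no gene of the 7 lists passed 2-fold (0.61% of all genes compared were past it lower and 0.179% higher), and Id2 stood at 269 and 272 CPM. Across the lists Id3 was higher in H2CKO in all 4 classes and Smad4 lower in all 4, by log2 ratios of 0.12 to 0.27 and of -0.76 to -0.55.

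**Figure D5:**
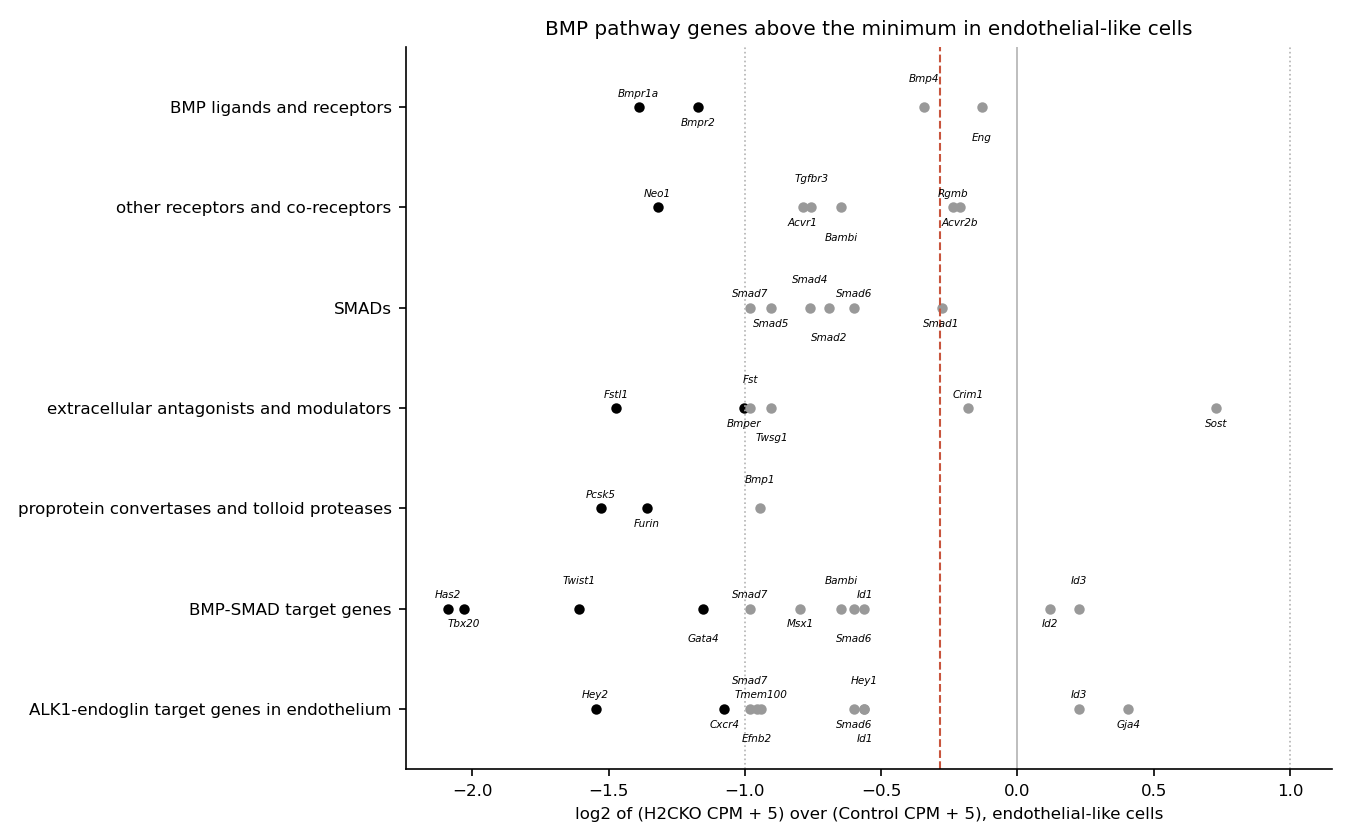
Log2 ratio of H2CKO over Control (after adding 5 CPM) in endothelial-like cells for the 10 genes (top row) and the genes of the pathway lists that were high enough to compare; black points are past 2-fold, grey ones are not, and the dashed red line is the median of all genes at -0.29. The points past 2-fold all lie on the lower side, with Has2 and Tbx20 farthest, and Id2, Id3, Gja4 and Sost, named for lying there, are above 0.

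The genes most like each of the 10 in pattern were found by Pearson correlation of log2(CPM + 5) over 39 points, each a cluster in a library with at least 30 cells. These points share libraries and depth, so the values describe the pattern only. Bmpr1a was most like Lpp (0.97) and Bmpr2 most like Tlk2 (0.98) and Trrap (0.98), genes present in many clusters. The correlation of Bmpr1a with Bmpr2 was 0.94 and that of Bmp5 with Bmp7 was 0.93. Bmp7 was most like Synpo2l, Xirp1 and Rbm24 (all 0.99), Bmp5 most like Klhl31 (0.97), and Bmp10 most like Sox3 (0.94) and Ntn1 (0.93). Eng was most like Ramp2 (0.98), Rhoj (0.96) and Notch1 (0.96), and Acvrl1 most like Sgk1 (0.86). The ligands with several sources had looser matches: Bmp2 was most like Id4 (0.86), Bmp4 most like Fzd1 (0.87) and Bmp6 most like Ttll7 (0.85).

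Overlap on the genome limits some of these values. Genes on the other strand cover the 3′ end of Eng (Fpgs), Bmp4 (Gm15217), Bmp5 (Gm26903) and Bmp6 (Txndc5), and whether counting used the strand is not given in the sources used here. Bmpr1a (chr14:34410734-34503341, minus strand) and Bmpr2 (chr1:59763400-59879014, plus strand) had no gene over their 3′ end in the GENCODE vM21 annotation of GRCm38.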

How the data were processed

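The authors deposited, per the file headers, 1 matrix of raw UMI counts per library (22401 features by 14114 and 13885 barcodes, 195825720 and 201477256 UMIs), and an embedding coordinate score for a subset of cells, used here only to mark that subset. The submitters' processing notes name Cell Ranger 5.0.1, Seurat 4 and GRCm38.p6. Of the features, 22285 had a symbol.

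The cell filter, 500 genes or more and 10% mitochondrial UMIs or less, left 9841 and 12141 cells. Scrublet (scanpy 1.11.5) marked 1048 Control doublets (10.6%) and none in H2CKO, where the top 5% of scores were removed (610 cells, 5.02%). The 2000 most variable genes, without the 10 genes, Hand2, reporters, haemoglobin, mitochondrial and Y-linked genes, Xist and Tsix, gave 30 principal components, neighbours balanced across libraries (15 from each) and 20 Leiden clusters (leidenalg 0.10.2, resolution 1, best of 10 seeds). Boundaries among cardiomyocyte clusters depended on numerical rounding. A cluster took the name of its best marker list where its median log2 fold over other cells was 0.25 or more, at least 3 markers were detected and its 10 leading genes held fewer markers of another class than of its own, or none of another class; counting subtype lists as own was set after seeing clusters. Shallow cells (cluster median 1721 UMIs in Control) stayed among cardiomyocyte-like cells.

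Class totals of UMIs were formed in each library, and log2((CPM in H2CKO + 5)/(CPM in Control + 5)) was computed; 2-fold was the threshold. Poisson, binomial and conditional ratio intervals are exact. The procedure was tested on simulated data, and the outcome is not given here. Named genes were the 10, list genes past 2-fold in a class or among the 2 most abundant of a list, and the 3 most alike per gene; the values of 1 unnamed cluster and 1 gene are not reported here. The genes and lists were chosen with earlier results of these data known. Alternatives covered cell filter, doublets, cells, clustering, naming, depth, scaling, cluster weights, pseudocount, minimum and gene span.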

Additional observations from a re-analysis of the deposited data

Results flagged for a closer look

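Bmp4 differed in direction between classes as summed. Its log2 ratio of H2CKO over Control was -0.34 in endothelial-like and -0.44 in cardiomyocyte-like cells, and 0.50 in mesenchymal-like and 0.18 in epicardial-like cells. The endothelial-like ratio was lower than the mesenchymal-like one by 0.85 (a difference of -0.85) and lower than the epicardial-like one (-0.53), and the cardiomyocyte-like ratio differed from them by -0.94 and -0.63. Signs depended on the processing: the epicardial-like ratio was -0.30 with doublets kept, the cardiomyocyte-like one 0.90 under a stricter cell filter, and the endothelial-like one 0.24 in the Klf2-rich cluster alone. In the Klf2-rich cluster the counting interval of the linear ratio, 0.934 to 1.56, includes no difference. With the H2CKO clusters weighted by their shares in Control the log2 ratio was 0.27 in endothelial-like and 0.06 in cardiomyocyte-like cells. The part of the cluster mix in the class values was not tested beyond this. With 1 library per genotype the difference was not tested.

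Eng differed in direction between the endothelial-like clusters: the log2 ratio was -0.42 in the Emcn-rich and 0.29 in the Klf2-rich cluster, a difference of -0.70. The difference was not tested.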

How the results depend on the processing

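Under the alternatives to the processing, of 279 recomputed log2 ratios 215 moved by less than their counting interval, 64 moved by more and 0 past 2-fold turned in sign. In endothelial-like cells the number of the 10 genes past 2-fold, 2 as reported, was 1 when ratios were centred on the median gene, 1 with a minimum of 100 CPM (Bmpr1a is below it), 1 with the gene-span trend taken out, 0 with the H2CKO clusters weighted by their shares of UMIs in Control (Bmpr1a at -0.99 and Bmpr2 at -0.97) and 0 in the Klf2-rich cluster alone, both added after seeing the data. The ratio of Bmpr1a ran from -1.89 to -0.72 and that of Bmpr2 from -1.35 to -0.83, the ends being the 2 clusters alone. In epicardial-like cells the number, 0 as reported, was 1 with doublets kept and 1 with only the cells of the deposited embedding. The gene was Bmp7, on the higher side in both, and the cause was not tested. Shares of all genes past 2-fold are given only for the main and the centred settings, so the other counts have no background beside them. In mesenchymal-like cells Bmpr2 ran from -1.38 to -1.02 and Bmp4 from 0.29 to 0.74. Values under 2-fold took the other sign in places: Bmp2 in epicardial-like cells was -0.60 with doublets kept, and Eng in mesenchymal-like cells 0.23 with cells thinned to 5000 UMIs. A minimum of 100 CPM left no gene to compare in cardiomyocyte-like and mesenchymal-like cells. Pooling all clusters with endothelial markers was the same as the classes used. No paired analysis was possible because each genotype has 1 library. Bmp10, Acvrl1 and Bmp6 were not called in the 4 classes because all stayed under the 20 CPM minimum.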
